A study of Mus musculus with 20 samples.

Results

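Genes of scar formation, stellate cells and smooth muscle were followed in whole liver RNA. The list was made by gene name. It names 38 genes, and the 37 found among the 16115 genes of the table were followed through every library, while Tagln was not analysed here. The livers came from male mice collected after 18 months of treatment. The 5 groups were wild-type mice without treatment and 4 groups of Fancd2 mutants (genotype d2-/- in the labels), of which 1 had no treatment, 1 had metformin, 1 had oxymetholone and 1 had metformin plus oxymetholone, called the combination. Fancd2 belongs to the Fanconi anaemia pathway of DNA repair, and all 4 mutant groups carry the same mutation. Metformin lowers blood glucose, and oxymetholone is an anabolic androgen. The labels name no strain, age or dose. Levels are CPM, the count of a gene relative to the scaled total of its library. Differences are log2 differences ± SE, and adjusted p is that of the quasi-likelihood test of edgeR after the Benjamini-Hochberg method was applied to all 16115 genes.

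Hepatic stellate cells store vitamin A beside the liver sinusoids. On injury they can turn into contractile, matrix-secreting myofibroblasts, a change driven by transforming growth factor beta, platelet-derived growth factor and connective tissue growth factor. Portal fibroblasts around the bile ducts and the smooth muscle cells of portal vessels are further sources of the same collagens and actins. In bulk RNA, fewer cells of a type and less RNA per cell cannot be told apart.

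In all 18 libraries were analysed, 4 of wild type, 3 of untreated mutants, 3 of metformin, 5 of oxymetholone and 3 of the combination, with 20199671 to 32747780 counts each. Nothing in the labels says whether the libraries of a group came from separate animals, so p-values measure the spread between these samples only. Replicate numbers are names. The Fancd2 transcript was not analysed here, which leaves the genotype labels without a check of that kind. All 12 hepatocyte markers on the list were present, and albumin (Alb) was between 19654 and 57703 CPM. Metformin replicate 3 and combination replicate 3 stood apart: their median correlations with the other libraries were 0.926 and 0.916, against 0.942 to 0.964 in the other 16. For many results that rest on them, values without them are given too. The lowest count of any of the 37 genes in a library was 1, no gene was at 0 in any library, and 10 genes had fewer than 10 counts in at least 1 library.

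The sequences just before the starts of Acta2 and Myl9 are shown because these contractile genes reached the highest values above the other libraries. Smooth muscle genes are classically bound by serum response factor at a motif called the CArG box, in which CC and GG flank 6 bases of A or T. Matches with at most 1 other base among those 6 are in capitals. The motif reads as the same pattern on both strands. Each line runs 5′ to 3′ toward the start site, from RefSeq on GRCm38.p6, at chr19:34255374-34255623 (minus strand) for Acta2 and chr2:156775214-156775463 (plus strand) for Myl9.
Acta2: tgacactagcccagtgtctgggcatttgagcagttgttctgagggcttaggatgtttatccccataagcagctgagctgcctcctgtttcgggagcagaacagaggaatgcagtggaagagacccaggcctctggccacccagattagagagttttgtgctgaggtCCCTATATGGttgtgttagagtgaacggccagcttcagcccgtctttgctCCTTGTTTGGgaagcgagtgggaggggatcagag
Myl9: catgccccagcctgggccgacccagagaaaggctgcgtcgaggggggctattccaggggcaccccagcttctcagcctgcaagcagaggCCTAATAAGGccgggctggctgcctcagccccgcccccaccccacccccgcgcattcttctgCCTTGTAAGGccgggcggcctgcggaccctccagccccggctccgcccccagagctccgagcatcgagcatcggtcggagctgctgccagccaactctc
In Acta2 the matches began 84 and 34 bases before the start and both had 1 mismatch. In Myl9 they began 161 and 99 bases before it, the first exact and the other with 1 mismatch. Of all 32851 promoters of the same source, 1.47% held an exact match in the same 250 bases and 8.59% a match with at most 1 mismatch. Among 26 promoters found for 24 of the genes, 1 held an exact match (Myl9) and 5 a match with at most 1 mismatch (Acta2, Col1a2, Col6a3, Lrat and Myl9). Those of Des and Synpo2 held none.

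No gene of the 37 passed the test in any of the 8 comparisons made, and most differences rested on 1 library. The middle of the list was highest in combination replicate 3 (median over the 37 genes of log2 CPM minus the wild-type mean, 2.06) and metformin replicate 3 (1.76). Oxymetholone replicate 5 (0.83), wild-type replicate 2 (0.78) and metformin replicate 4 (0.70) came next. Oxymetholone replicate 3 (-0.75) and wild-type replicate 1 (-0.70) were lowest, so that untreated wild-type livers alone ran from near the bottom to near the top of the remaining libraries. Combination replicate 3 held the highest value of all 18 libraries in 17 genes and metformin replicate 3 in 15, and oxymetholone replicate 3 held the lowest in 12. The heat map of the 37 genes shows these libraries as columns of mostly 1 colour.

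**Figure D1:**
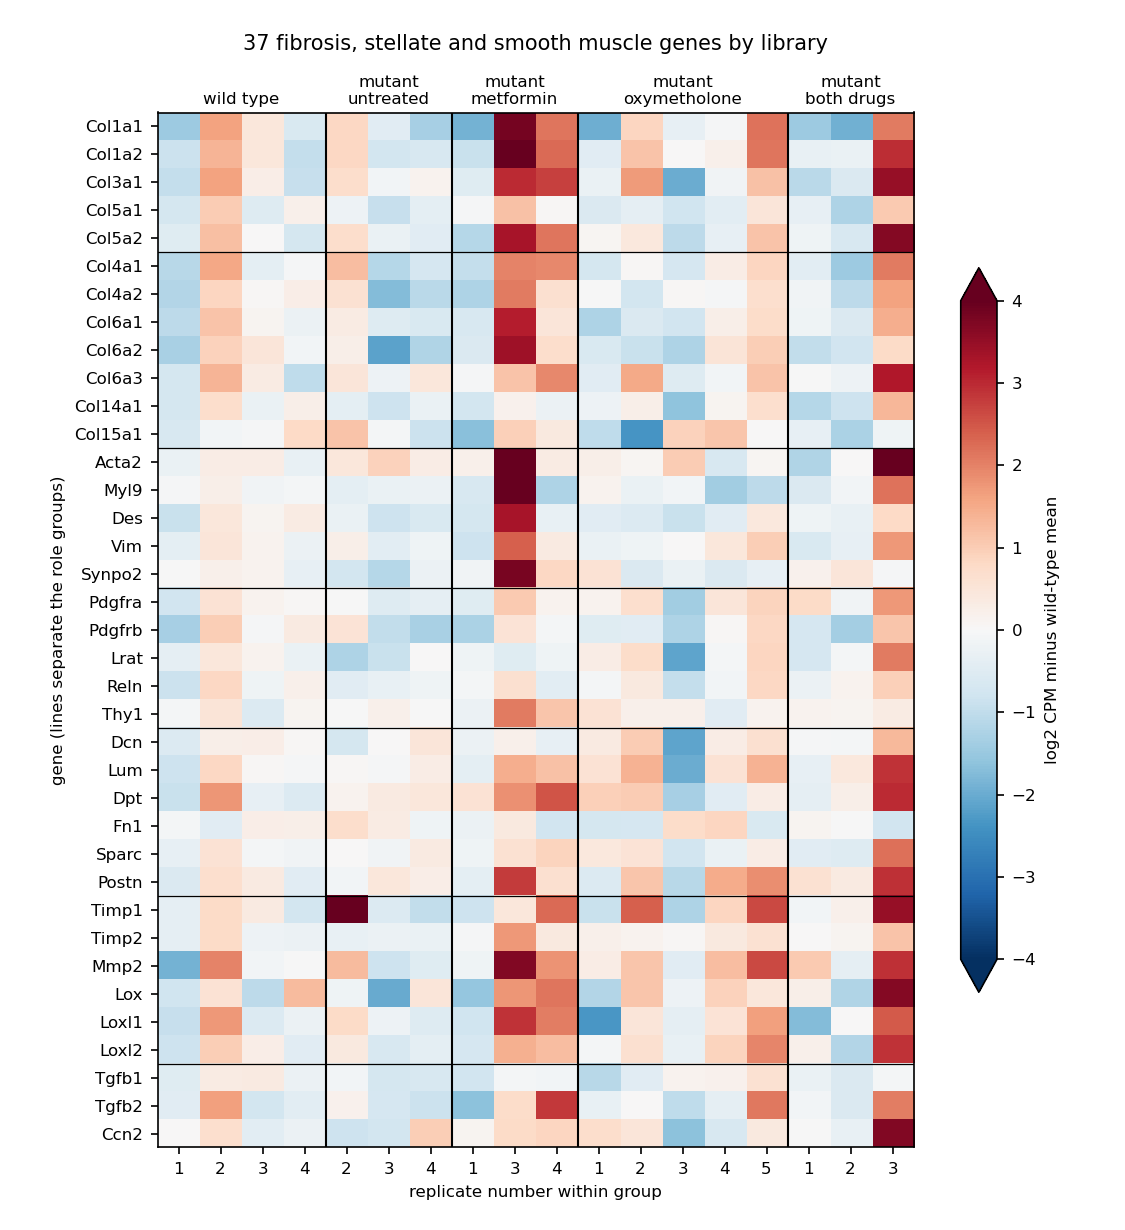
Log2 CPM minus the wild-type mean (colour scale, log2 units) for each of the 37 genes (rows, grouped by role) in each of the 18 libraries (columns, grouped by genotype and treatment). Combination replicate 3 held the highest value in 17 rows and metformin replicate 3 in 15, while replicate 1 of metformin and replicates 1 and 2 of the combination did not stand out in this way.

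The 5 contractile genes all had their highest value in metformin replicate 3. Acta2 encodes smooth muscle actin, the usual mark of an activated stellate cell and of vessel smooth muscle. It was at 1.10, 1.67, 1.68 and 1.08 CPM in wild type and at 1.88, 2.62 and 1.69 CPM in untreated mutants. With metformin it was at 1.58, 119 and 1.71 CPM, with oxymetholone at 1.60, 1.45, 2.81, 0.852 and 1.44 CPM, and with the combination at 0.545, 1.38 and 27.5 CPM. A single library held 97.3% of the summed Acta2 level of the metformin group (40.8 ± 67.8 CPM, SD, n = 3) and 93.5% of that of the combination group (9.80 ± 15.3 CPM, SD, n = 3). The other libraries of these groups lay below the highest untreated mutant. Against untreated mutants the Acta2 difference was 4.31 ± 1.45 with metformin (adjusted p = 0.607) and -0.32 without metformin replicate 3. With the combination it was 2.27 ± 1.34 (adjusted p = 0.973) and -1.10 without combination replicate 3. The untreated mutants did not overlap the wild types in Acta2, all 3 being higher (0.56 ± 1.24, adjusted p = 0.981).

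Myl9, a light chain of smooth muscle myosin, was at 1.21, 61.9 and 0.782 CPM with metformin and 1.29, 1.78 and 9.01 CPM with the combination. It was at 1.89, 2.31, 1.76 and 1.85 CPM in wild type, 1.46, 1.59 and 1.65 CPM in untreated mutants, and 2.16, 1.59, 1.81, 0.690 and 0.894 CPM with oxymetholone. The metformin difference of Myl9 was 3.76 ± 1.19 (adjusted p = 0.579), and without metformin replicate 3 it had the other sign (-0.66). All 3 untreated mutants lay below all 4 wild types in Myl9, with a difference of -0.32 ± 1.04 (adjusted p = 0.986). Desmin (Des), an intermediate filament of muscle and of stellate cells, was at 3.68, 60.1 and 4.95 CPM with metformin. In wild type Des was at 3.27, 8.33, 6.59 and 7.63 CPM, in untreated mutants at 5.01, 3.39 and 4.0 CPM, with oxymetholone at 4.45, 4.19, 3.29, 4.38 and 8.18 CPM and with the combination at 5.35, 4.95 and 10.6 CPM. Only metformin replicate 3 was far from the others, and the metformin difference of Des was 2.47 ± 0.78 (adjusted p = 0.579), or 0.06 without it.

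Synpo2 encodes synaptopodin 2, an actin-binding protein of muscle. It was at 0.631, 10.6 and 1.30 CPM with metformin, and each of these lay above all 3 untreated mutants (0.391, 0.273 and 0.587 CPM). It was at 0.691, 0.819, 0.788 and 0.540 CPM in wild type, 1.08, 0.445, 0.571, 0.446 and 0.542 CPM with oxymetholone and 0.793, 1.02 and 0.682 CPM with the combination. Synpo2 had the smallest p of the list in the metformin comparison (3.30 ± 0.77, adjusted p = 0.579). DESeq2 gave 3.27 ± 0.75 with an adjusted p of 0.0399, the 1 gene of the list past 0.05 by DESeq2 or limma-voom in that comparison. Without metformin replicate 3 the edgeR difference of Synpo2 was 1.21. In combination replicate 3, where Acta2, Myl9 and Vim were above the other libraries of the group, Synpo2 was the lowest of its group. Vimentin (Vim), the intermediate filament of mesenchymal cells, was at 12.4, 115 and 28.3 CPM with metformin and 14.4, 17.6 and 73.0 CPM with the combination. It was between 16.4 and 43.4 CPM in the other groups. The metformin difference of Vim, 1.33 ± 0.67 (adjusted p = 0.903), came to -0.03 without replicate 3.

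**Figure D2:**
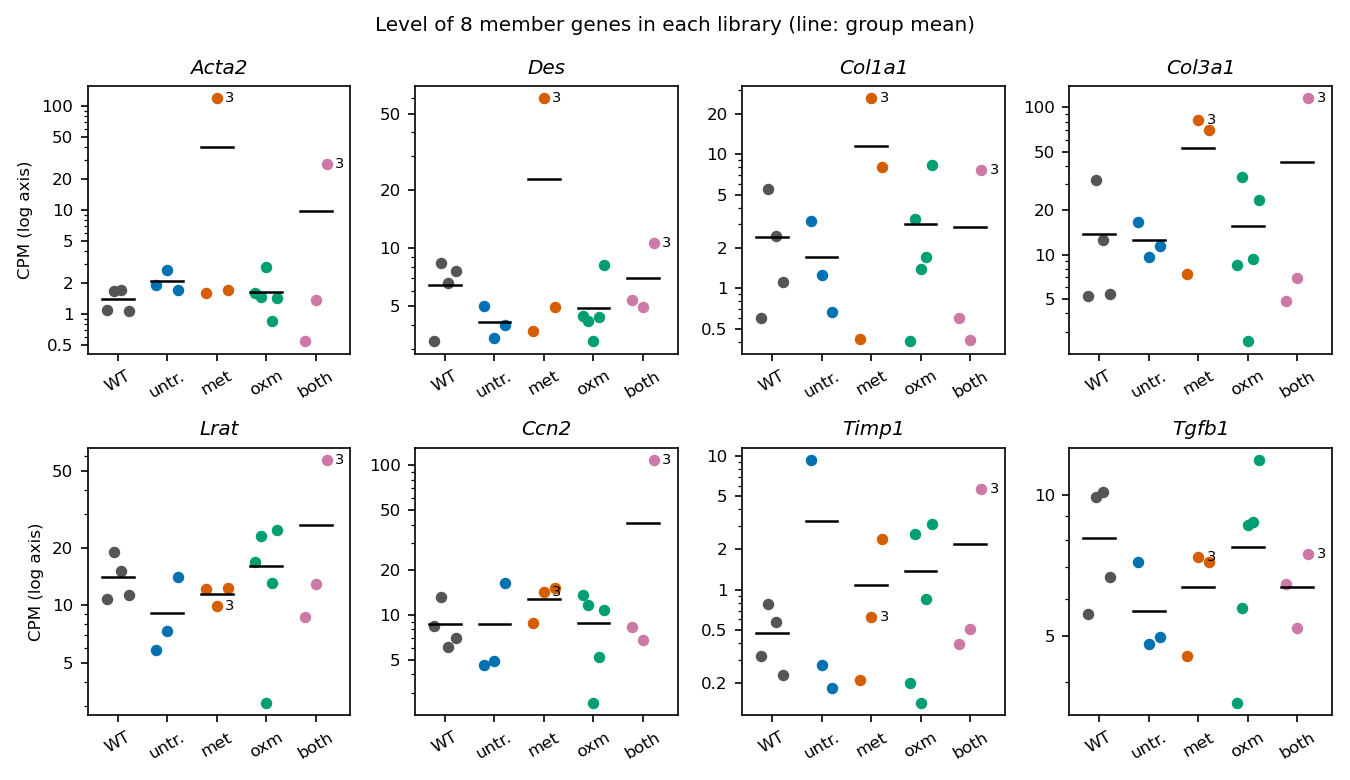
CPM (log axis) of 8 of the genes in every library, by group on the horizontal axis (WT, wild type; untr., untreated mutant; met, metformin; oxm, oxymetholone; both, the combination). Each point is 1 library, each line the group mean, and the points marked 3 are metformin replicate 3 and combination replicate 3, at 119 and 27.5 CPM for Acta2 against at most 2.81 CPM in the other libraries.

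Fibrillar collagens are the main fibres of scar tissue. In Col1a1, Col1a2, Col3a1 and Col5a2, though not in Col5a1, metformin replicate 4 as well as replicate 3 lay above every wild type and untreated mutant. Col1a1, a chain of type I collagen, was at 0.421, 26.3 and 8.03 CPM with metformin and at 3.20, 1.26 and 0.660 CPM in untreated mutants. In wild type Col1a1 was at 0.599, 5.55, 2.44 and 1.12 CPM, with oxymetholone at 0.401, 3.26, 1.38, 1.70 and 8.29 CPM, and with the combination at 0.595, 0.408 and 7.62 CPM. All groups overlapped, and each spanned a wide range (untreated mutants 1.70 ± 1.33 CPM, SD, n = 3). The metformin difference of Col1a1 was 2.76 ± 1.32 (adjusted p = 0.877), and 1.32 without replicate 3. Col1a2, the other chain of type I collagen, was at 1.68, 51.5 and 15.6 CPM with metformin and at 5.75, 1.91 and 2.02 CPM in untreated mutants. In wild type Col1a2 was at 1.75, 8.40, 4.41 and 1.62 CPM, with oxymetholone at 2.32, 7.19, 3.29, 3.69 and 14.4 CPM and with the combination at 2.58, 2.65 and 25.6 CPM. As in Col1a1, metformin replicates 3 and 4 were high and replicate 1 was not. For Col1a2 the metformin difference was 2.82 ± 1.11 (adjusted p = 0.764), and 1.42 without replicate 3.

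Col3a1, the collagen of young scar and vessel walls, was at 7.42, 82.0 and 69.8 CPM with metformin and at 16.8, 9.57 and 11.5 CPM in untreated mutants. It was at 5.25, 31.9, 12.5 and 5.40 CPM in wild type, 8.53, 33.8, 2.57, 9.33 and 23.5 CPM with oxymetholone, and 4.85, 6.88 and 115 CPM with the combination. Metformin replicates 3 and 4 lay above every wild-type, untreated mutant and oxymetholone library in Col3a1, and metformin replicate 1 lay below every untreated mutant. For Col3a1 the metformin difference was 2.07 ± 1.14 (adjusted p = 0.927). With the combination it was 1.75 ± 1.13 (adjusted p = 0.977), and -1.10 without combination replicate 3. Col5a1 and Col5a2 encode type V collagen, which starts the assembly of type I fibres. Col5a1 was at 2.05, 4.92 and 2.2 CPM with metformin, above the untreated mutants at 1.85, 1.09 and 1.61 CPM without overlap. In wild type Col5a1 was at 1.29, 4.38, 1.47 and 2.47 CPM, with oxymetholone at 1.40, 1.63, 1.19, 1.58 and 3.03 CPM and with the combination at 1.68, 0.867 and 4.47 CPM. The wild types thus overlapped both of the first 2 groups in Col5a1, with a difference of -0.66 ± 0.55 for untreated mutants (adjusted p = 0.973). Col5a2 was at 0.263, 7.26 and 3.24 CPM with metformin, 0.595, 0.408 and 9.59 CPM with the combination and 0.286 to 1.64 CPM in the other groups.

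Among the basement membrane and other collagens, Col4a1 and Col4a2 form type IV collagen, the sheet under vessels and ducts. Col4a1 was at 3.0, 23.7 and 22.6 CPM with metformin and 4.41, 2.09 and 25.4 CPM with the combination, and it reached 17.4 CPM in wild-type replicate 2. Col4a2 ran from 0.766 to 11.6 CPM over the 18 libraries. The chains of type VI collagen, a beaded microfibril, did not peak in the same library. Col6a1 (19.1 CPM) and Col6a2 (16.01 CPM) were highest in metformin replicate 3, whereas Col6a3 was highest in combination replicate 3 (14.04 CPM) and at 3.30 CPM in metformin replicate 3. Col6a2 was at 0.947, 16.01 and 2.40 CPM with metformin, 1.70, 0.273 and 0.587 CPM in untreated mutants and 0.552, 2.81, 2.04 and 1.35 CPM in wild type. With oxymetholone Col6a2 was at 0.921, 0.742, 0.571, 2.11 and 2.95 CPM and with the combination at 0.694, 0.816 and 2.52 CPM. Groups overlapped throughout. For Col6a2 the metformin difference was 2.89 ± 0.98 (adjusted p = 0.626) and 0.96 without replicate 3, and the genotype difference was -0.96 ± 0.90 (adjusted p = 0.973). Col14a1, which binds along collagen fibres, ran from 5.81 to 44.3 CPM. Col15a1, a collagen of vessel basement membranes, ran from 0.630 to 7.81 CPM, and was at 6.90 CPM in metformin replicate 3 and 3.10 CPM in combination replicate 3.

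Genes that mark stellate cells and fibroblasts were in most cases higher in combination replicate 3 than in metformin replicate 3. Lrat, the enzyme that esterifies vitamin A for storage in stellate cells, was at 8.67, 12.9 and 57.6 CPM with the combination and 12.2, 9.87 and 12.3 CPM with metformin. It was at 5.83, 7.38 and 14.01 CPM in untreated mutants, 10.8, 19.0, 15.2 and 11.4 CPM in wild type and 16.7, 22.9, 3.09, 13.1 and 24.7 CPM with oxymetholone. All 5 groups overlapped in Lrat, and metformin replicate 3, the library with the highest Acta2, lay below every wild type. The combination difference of Lrat was 1.54 ± 0.66 (adjusted p = 0.881) and 0.25 without replicate 3, and the oxymetholone difference was 0.83 ± 0.60 (adjusted p = 0.877). Pdgfra, a platelet-derived growth factor receptor of fibroblasts, was at 5.35, 2.80 and 10.4 CPM with the combination and 3.09, 2.13 and 2.42 CPM in untreated mutants. In wild type Pdgfra was at 1.80, 4.66, 3.40 and 3.20 CPM, with metformin at 2.21, 6.41 and 3.39 CPM and with oxymetholone at 3.40, 4.93, 1.14, 4.38 and 5.77 CPM. All groups overlapped the untreated mutants in Pdgfra, and the combination difference was 1.28 ± 0.55 (adjusted p = 0.881), or 0.67 without replicate 3.

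Pdgfrb, the related receptor that drives stellate cell division, was at 1.15, 6.05, 2.90 and 3.89 CPM in wild type and 4.37, 1.48 and 1.17 CPM in untreated mutants. With metformin Pdgfrb was at 1.21, 4.39 and 2.81 CPM, with oxymetholone at 2.12, 2.15, 1.24, 3.08 and 5.39 CPM, and with the combination at 1.83, 1.12 and 6.56 CPM. Each group held both low and high libraries. For Pdgfrb the metformin difference was 0.26 ± 0.73 (adjusted p = 0.959) and the genotype difference -0.58 ± 0.69 (adjusted p = 0.973). Reln, a secreted protein made by stellate cells in liver, ran from 8.62 to 32.7 CPM. Thy1, a surface protein of portal fibroblasts and of T cells, was at 2.26, 11.6 and 5.85 CPM with metformin and at 1.83 to 4.09 CPM in the other groups. For Thy1 the metformin difference was 1.23 ± 0.44 (adjusted p = 0.661), and 0.54 without replicate 3.

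The matrix glycoproteins and proteoglycans differed in which library was highest and lowest. Fn1, fibronectin, is made by hepatocytes as a plasma protein as well as by fibroblasts. It ran from 279 CPM in combination replicate 3 to 863 CPM in oxymetholone replicate 4, so the library that was highest in 17 other genes was lowest in Fn1. Dcn, decorin, a proteoglycan of collagen fibres, ran from 46.0 CPM in oxymetholone replicate 3 to 489 CPM in combination replicate 3. Lum, lumican, a relative of decorin, was at 10.3, 17.4 and 95.0 CPM with the combination and at 3.19 to 35.2 CPM in the other groups. Sparc, a collagen-binding protein, was at 289 CPM in combination replicate 3 and at 37.5 to 117 CPM in the other 17 libraries. Postn, periostin, was at 18.5 CPM in combination replicate 3, 16.7 CPM in metformin replicate 3 and at most 8.67 CPM in the rest. Dpt, dermatopontin, was at 2.16, 5.22 and 8.52 CPM with metformin, all above the untreated mutants (1.60, 1.86 and 1.98 CPM), with a difference of 1.55 ± 0.88 (adjusted p = 0.927). In wild type Dpt was at 0.737, 5.02, 1.11 and 0.964 CPM, so the metformin libraries overlapped that group.

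Timp1, a metalloproteinase inhibitor induced in injured liver, was highest in an untreated mutant. It was at 9.38, 0.273 and 0.183 CPM in untreated mutants and 0.322, 0.783, 0.573 and 0.231 CPM in wild type. With metformin Timp1 was at 0.210, 0.627 and 2.40 CPM, with oxymetholone at 0.200, 2.60, 0.143, 0.852 and 3.11 CPM and with the combination at 0.396, 0.510 and 5.69 CPM. Untreated mutant replicate 2 held 95.4% of its group's summed Timp1 level, and the other 2 mutants lay within or below the wild-type range. The genotype difference of Timp1 was 2.77 ± 1.31 (adjusted p = 0.973), the smallest p of the list in that comparison, and -1.08 without that library. Untreated mutant replicate 2 also had the highest summed level of the 12 neutrophil markers, all of them measured, at 4910 CPM against 19.7 to 3584 CPM elsewhere, and of the 14 bile duct markers measured, at 1976 CPM. Their part in the Timp1 result was not tested. The same library set the sign of Timp1 in the 3 treatment comparisons, which share the untreated mutants. The metformin difference of Timp1 was -1.58 with it and 2.27 without it, the oxymetholone difference -1.24 and 2.61, and the combination difference -0.55 and 3.29.

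Timp2, a related inhibitor, was at 9.27, 9.68 and 9.50 CPM in untreated mutants and 8.79, 19.5, 9.92 and 9.71 CPM in wild type. It was at 10.9, 37.8 and 14.7 CPM with metformin, 13.2, 12.6, 11.8, 14.9 and 17.3 CPM with oxymetholone and 11.5, 12.3 and 25.3 CPM with the combination. Each treated group lay above the untreated mutants without overlap, and each overlapped wild type. The differences of Timp2 against the shared untreated mutants were 1.16 ± 0.42 with metformin (adjusted p = 0.668), 0.56 ± 0.38 with oxymetholone (adjusted p = 0.877) and 0.79 ± 0.42 with the combination (adjusted p = 0.938). Without metformin replicate 3 and without combination replicate 3 the first and last of these were 0.44 and 0.33. Mmp2, a gelatin-cutting protease of activated stellate cells, ran from 0.0921 to 8.02 CPM and was highest in metformin replicate 3.

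Lysyl oxidases crosslink collagen. Lox was at 0.545, 0.153 and 6.68 CPM with the combination, 0.391, 0.0547 and 0.660 CPM in untreated mutants and 0.230, 0.712, 0.179 and 1.19 CPM in wild type. With metformin Lox was at 0.105, 1.72 and 2.26 CPM and with oxymetholone at 0.160, 1.08, 0.381, 0.933 and 0.650 CPM. The combination difference of Lox was 2.71 ± 1.2 (adjusted p = 0.881), and -0.12 without combination replicate 3, the 1 library of its group above the untreated mutants. Loxl2 was at 0.316, 1.62 and 1.39 CPM with metformin, 0.644, 0.204 and 4.56 CPM with the combination and 0.746, 0.328 and 0.404 CPM in untreated mutants. In wild type Loxl2 was at 0.276, 1.17, 0.681 and 0.386 CPM and with oxymetholone at 0.521, 0.890, 0.428, 1.10 and 2.33 CPM. All groups overlapped, and the oxymetholone difference of Loxl2 was 1.09 ± 0.85 (adjusted p = 0.877). Loxl1 ran from 0.0401 to 4.23 CPM.

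Tgfb1 is the main ligand driving stellate activation. In metformin replicate 3 and combination replicate 3 it was the highest of the group and above all 3 untreated mutants, but below wild-type replicates 2 and 3. It was at 5.57, 9.90, 10.1 and 6.67 CPM in wild type, 7.17, 4.81 and 4.99 CPM in untreated mutants and 4.53, 7.36 and 7.18 CPM with metformin. With oxymetholone Tgfb1 was at 3.60, 5.75, 8.62, 8.76 and 11.9 CPM and with the combination at 6.44, 5.2 and 7.48 CPM. Groups overlapped throughout. The differences of Tgfb1 were -0.51 ± 0.35 for genotype (adjusted p = 0.973), 0.17 ± 0.37 with metformin (adjusted p = 0.953), 0.45 ± 0.34 with oxymetholone (adjusted p = 0.877) and 0.17 ± 0.37 with the combination (adjusted p = 0.998). Tgfb2, another ligand of the family, ran from 0.158 to 5.07 CPM and was highest in metformin replicate 4. Ccn2, connective tissue growth factor and a classical target of the pathway, was at 8.22, 6.78 and 109 CPM with the combination and 8.38, 13.1, 6.09 and 6.94 CPM in wild type. In untreated mutants Ccn2 was at 4.58, 4.92 and 16.4 CPM, with metformin at 8.84, 14.2 and 15.0 CPM and with oxymetholone at 13.5, 11.7, 2.57, 5.23 and 10.8 CPM. Combination replicate 3 stood alone, and the combination difference of Ccn2 was 2.26 ± 0.87 (adjusted p = 0.851) with it and -0.20 without it.

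The effect of the Fancd2 mutation was examined in untreated mice by setting 3 mutants against 4 wild types. The list lay slightly lower in the mutants: 29 of 37 genes were lower and 8 higher, where 47.8% of all genes were higher. The median difference was -0.33, against -0.02 over all genes. None of the 37 had an adjusted p under 0.05 by edgeR (0% of all genes), DESeq2 or limma-voom, and none had an unadjusted p under 0.05 by edgeR (2.58% of all genes). Groups did not overlap in Acta2, higher in mutants (2.5% of all genes), and in Myl9, lower in mutants (3.82% of all genes). The direction rested on wild-type replicate 2: without it 24 of 37 genes were higher in the mutants and the median was 0.15. Shares over all genes, here and in the next comparisons, are those of the fits with all libraries. A difference is said to rest on 1 library where leaving it out reversed the sign or left less than 50% of the log2 size. That held for 29 genes here, in 23 of which the sign reversed. Differences near 0 meet this rule easily, such as that of Ccn2 (1e-04), where leaving out any of 4 libraries was enough. The share of all genes that meet it is not given here. The exceptions among the 37 were Col6a2, Col14a1, Acta2, Myl9, Des, Synpo2, Lrat and Tgfb1.

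Metformin was examined against untreated mutants, 3 libraries on each side. With metformin 33 of 37 genes lay higher (53.9% of all genes), with a median of 1.29 against 0.04 over all genes. Contractile genes had a median of 3.30 (5 of 5 higher) and fibrillar collagens one of 2.31 (5 of 5), while stellate and fibroblast markers were at 0.42 (5 of 5). Adjusted p was under 0.05 in none of the 37 genes by edgeR (0% of all genes) or limma-voom. DESeq2 called 1 of them, Synpo2, and 11 of all 16115 genes. An unadjusted p under 0.05 was found by edgeR for 9 genes, all higher, which is 24.3% of the list, where 4.41% of all genes were higher at that level. They were Synpo2, Des, Myl9, Acta2, Col6a2, Thy1, Timp2, Col1a2 and Col6a1. Without metformin replicate 3 the number was 1 and the median 0.44, with 28 of 37 genes higher. No share over all genes is given for that fit. Col5a1, Synpo2, Dpt and Timp2 were higher without overlap, 4 of 37 genes, where 3.94% of all genes were.

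The metformin difference rested on 1 library in 28 genes, and in 19 of them leaving out metformin replicate 3 was enough. The 5 contractile genes had a median of -0.03 without it and the 5 fibrillar collagens one of 1.32. For 9 genes the difference kept at least 50% of its size without any 1 library: Col1a2, Col3a1, Col5a2, Col4a1, Lum, Dpt, Lox, Loxl1 and Loxl2, a group of collagens, crosslinking enzymes and small matrix proteins. In each of the 9, metformin replicates 3 and 4 were both above the 3 untreated mutants, and in 8 of them metformin replicate 1 was below the highest untreated mutant, Dpt being the exception.

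Oxymetholone was examined in 5 libraries against the same 3 untreated mutants. Differences were small: 31 of 37 genes lay higher (52.9% of all genes), with a median of 0.37 against 0.03 over all genes. None had an adjusted p under 0.05 by edgeR (0.0434% of all genes), DESeq2 or limma-voom, and none an unadjusted p under 0.05 by edgeR (4.8% of all genes). Timp2 was the 1 gene higher without overlap (1.87% of all genes). The difference rested on 1 library in 29 genes, and in 20 of them oxymetholone replicate 5 was such a library. Without it the median was 0.11 and 22 of 37 genes were higher. Col14a1, Pdgfra, Lrat, Lum, Postn, Timp2, Loxl2 and Tgfb1 were the 8 genes whose difference did not rest on 1 library. None of these differences was large beside its SE, as with 0.62 ± 0.50 for Pdgfra (adjusted p = 0.877).

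The combination was examined in 3 libraries against the same untreated mutants. With it 34 of 37 genes lay higher (50.4% of all genes), with a median of 0.96 against 0.00 over all genes, but combination replicate 3 carried the direction. None had an adjusted p under 0.05 by edgeR (0.0186% of all genes), DESeq2 or limma-voom. In all 4 genes, Ccn2, Lrat, Pdgfra and Lox, had an unadjusted p under 0.05 by edgeR, all higher (3.58% of all genes). Without combination replicate 3, 11 of 37 genes were higher, the median was -0.21 and no gene had an unadjusted p under 0.05. The difference rested on 1 library in 34 genes, in 32 of them on this one, and 23 reversed without it. Synpo2, Pdgfra and Fn1 were the exceptions. Synpo2 and Timp2 were higher without overlap (4.71% of all genes), and Fn1 was at -0.51 (adjusted p = 0.998). The plot of differences without each library shows the list moving below 0 in this comparison.

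**Figure D3:**
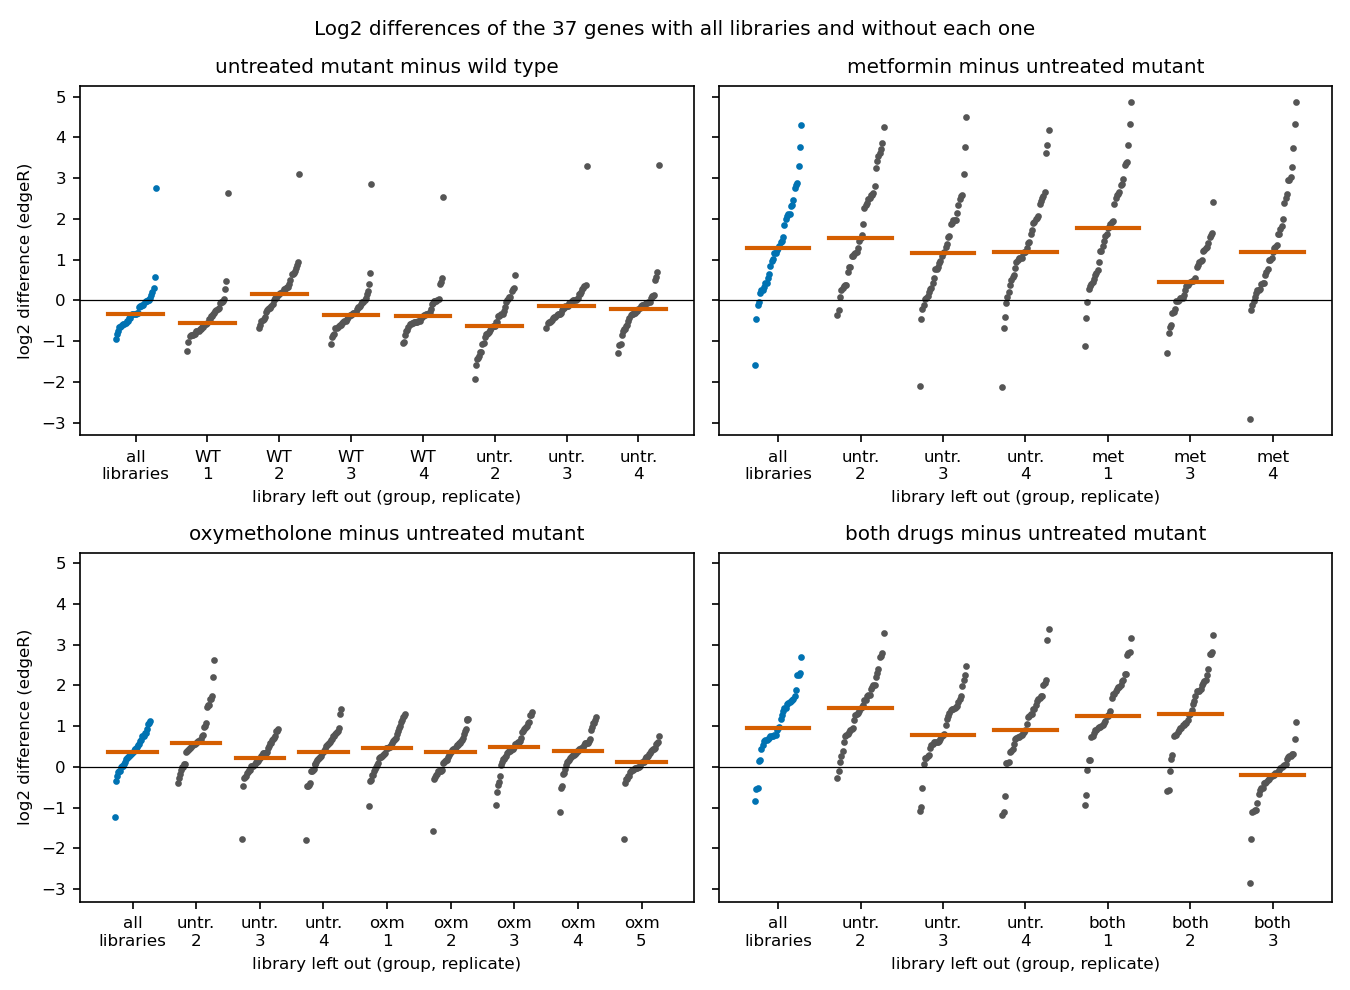
Log2 differences (vertical axis, edgeR) of the 37 genes in 4 comparisons, with all libraries (blue) and with each library left out in turn (grey, horizontal axis). Points are genes sorted by size and the orange line is their median, which goes from 0.96 to -0.21 without combination replicate 3, from 1.29 to 0.44 without metformin replicate 3, and from -0.33 to 0.15 without wild-type replicate 2.

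Treated mutants were also set against wild type. With metformin 30 of 37 genes were higher than in wild type (52.8% of all genes), with a median of 1.19. Among them 10 had an unadjusted p under 0.05 (3.79% of all genes were higher at that level), led by Synpo2 (2.56 ± 0.67, adjusted p = 0.372) and Acta2 (4.87 ± 1.32, adjusted p = 0.411), and none an adjusted p under 0.05 (0% of all genes). Without metformin replicate 1 the adjusted p was 0.033 for Synpo2 and 0.0474 for Thy1, 2 of 67 genes then called among all 16115. Without metformin replicate 3 none of the 37 had an unadjusted p under 0.05 and the median was 0.25. Synpo2 was then at 0.46 and Acta2 at 0.25. With oxymetholone 25 of 37 genes were higher than in wild type (51.7% of all genes), with a median of 0.10. The sign of that median turned on 1 library: it was -0.03, with 17 of 37 higher, without wild-type replicate 1, and -0.02, with 16 of 37 higher, without oxymetholone replicate 5. The difference rested on 1 library in 31 genes. None of the 37 had an adjusted p (0.0993% of all genes) or an unadjusted p (4.51% of all genes) under 0.05. With the combination 31 of 37 were higher (52.1% of all genes), with a median of 0.63, and -0.50 without combination replicate 3. None had an adjusted p under 0.05 (0.0248% of all genes) and 5 had an unadjusted p under 0.05, all higher (4.28% of all genes), among them Ccn2 (2.26 ± 0.78, adjusted p = 0.593) and Acta2 (2.83 ± 1.23, adjusted p = 0.703). Without combination replicate 3 Ccn2 was at -0.20 and Acta2 at -0.53. DESeq2 and limma-voom called none of the 37 in these 3 comparisons, and limma-voom put the combination median at -0.07.

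Whether metformin acted alike with and without oxymetholone was tested as an interaction. In it 10 of 37 genes were higher (47.3% of all genes), with a median of -0.56, and none had an adjusted p under 0.05 by edgeR (0% of all genes), DESeq2 or limma-voom. Synpo2 (-2.88 ± 1.01) and Col6a2 (-2.99 ± 1.28) had an unadjusted p under 0.05, both lower (2% of all genes), each with an adjusted p of 0.863. Without metformin replicate 3 these differences were -0.79 for Synpo2 and -1.06 for Col6a2. The sign of the median depended on 1 library: it was 0.20 without metformin replicate 3 and -1.94 without combination replicate 3.

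Among the 37 genes, the libraries that stood apart shared Acta2 as the gene furthest above the wild-type mean (6.38 log2 units in metformin replicate 3 and 4.27 in combination replicate 3). They differed in the level of many other genes. Metformin replicate 3 lay above all of the other 16 libraries in 21 of 37 genes and combination replicate 3 in 28, with 17 in common. Col15a1, Fn1, Timp1, Tgfb1 and Tgfb2 were above the rest in neither. Acta2, Myl9, Des, Synpo2 and Col6a2 were more than 4-fold higher in metformin replicate 3 than in combination replicate 3. Lrat, Ccn2, Col6a3 and Timp1 were more than 4-fold higher in combination replicate 3. Acta2 was 4.33 times and Des 5.66 times higher in the former, while Ccn2 was 7.68 times and Timp1 9.07 times higher in the latter.

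**Figure D4:**
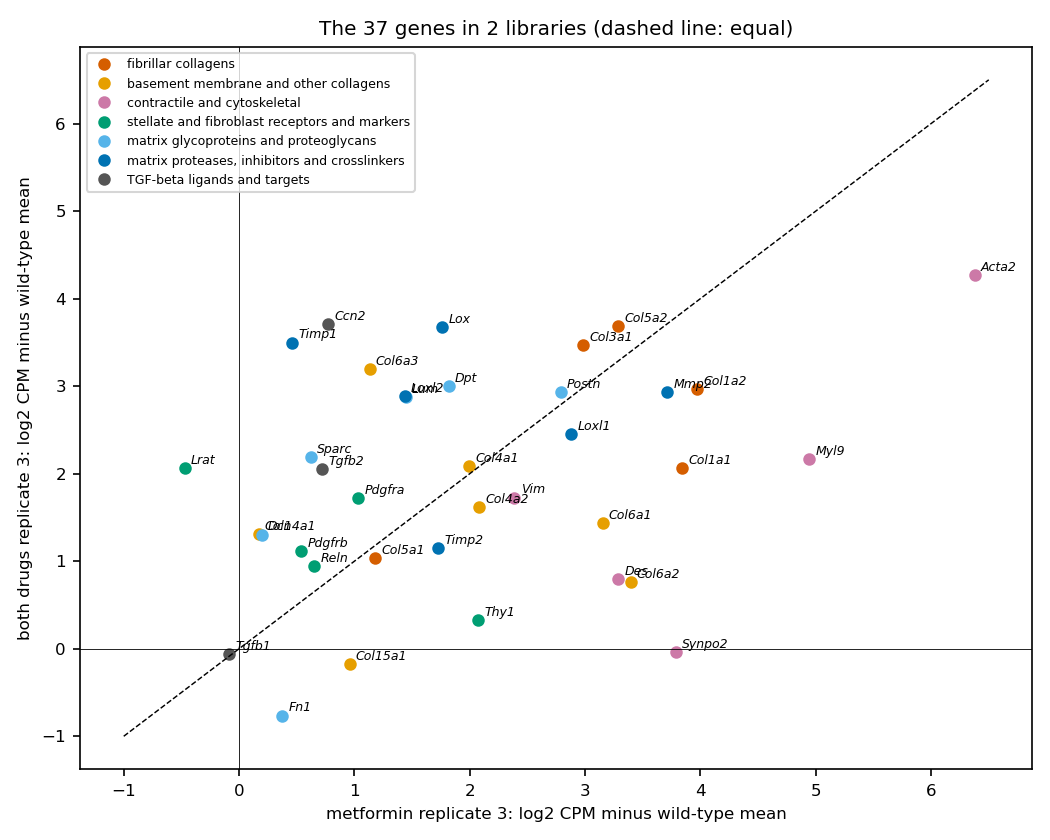
Log2 CPM minus the wild-type mean of each of the 37 genes in metformin replicate 3 (horizontal axis) and combination replicate 3 (vertical axis), coloured by role, with a dashed line where both are equal. The 5 contractile genes lie below the line, with Acta2 at the far right, and Ccn2, Timp1 and Lrat lie above it.

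Markers of other cells also differed between these 2 libraries and the rest, and their part in the results above was not tested. Of 12 skeletal muscle markers 3 were measured (Acta1, Mylpf and Pvalb). Their summed level was 118 CPM in metformin replicate 3 and 0.926 to 2.73 CPM in the other 17 libraries, and Acta1, skeletal muscle actin, was at 0 in 1 oxymetholone and 1 combination library. Of 11 portal fibroblast markers 10 were measured, and they summed to 397 CPM in metformin replicate 3, 105 CPM in combination replicate 3 and 23.8 to 201 CPM elsewhere, with Clec3b at 0 in at least 1 library of each treated group. Of 15 bile duct markers 14 were measured. They summed to 1340 CPM in metformin replicate 3, 1557 CPM in combination replicate 3, 1976 CPM in untreated mutant replicate 2 and at most 738 CPM elsewhere, with Cftr and Cldn4 at 0 in some untreated mutant and oxymetholone libraries. All 10 mesothelial markers were measured, 1 of them, Krt19, also on the bile duct list, and they summed to 792 CPM in metformin replicate 3, 2204 CPM in combination replicate 3 and 228 to 1426 CPM elsewhere. In combination replicate 3 the 17 cell division genes summed to 89.1 CPM, against at most 45.5 CPM elsewhere, and the hepatocyte list had the lowest median of all libraries (-1.43 on the log2 scale relative to wild type). Kupffer cell and macrophage markers, all 16 measured, summed to 1626 CPM in combination replicate 3 and 285 to 1271 CPM in the other 17 libraries. Of 12 lymphocyte markers 11 were measured, and they summed to 47.4 CPM in combination replicate 3 and 9.79 to 37.99 CPM in the other 17, with Cd3e and Gzma each at 0 in at least 1 combination library. The 15 endothelial markers summed to 191 and 221 CPM in the 2 libraries and to 99.7 to 189 CPM elsewhere.

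For comparison 6 lists of related genes, none of them among the 37, were described in the same way. No gene of them had an adjusted p under 0.05 by edgeR in any of the 8 comparisons (0% to 0.0993% of all genes). Over all genes 53.9% lay higher with metformin and 50.4% with the combination. Of 18 smooth muscle genes 16 lay higher with metformin (median 1.33, and -0.03 without metformin replicate 3). With an unadjusted p under 0.05 by edgeR, 6 of the 18 were higher (4.41% of all genes) and 1 was lower (1.27% of all genes). Smooth muscle myosin (Myh11) was at 53.3 CPM and enteric actin (Actg2) at 33.7 CPM in metformin replicate 3, and at most 1.32 and 0.588 CPM elsewhere. With the combination 13 of 18 were higher (median 0.36), and Ppp1r14a, an inhibitor of myosin phosphatase, was at 25.9, 19.1 and 23.5 CPM against 44.2, 56.4 and 34.1 CPM in untreated mutants, without overlap (-0.97 ± 0.27, adjusted p = 0.670). By library, in order of size, the smooth muscle median relative to wild type was -0.34, -0.27 and 0.57 with the combination. Of 21 other stellate cell genes 11 were higher with metformin (median 0.00) and 17 with the combination (median 0.53). By library the stellate median was -0.21, -0.04 and 0.45 with the combination and -0.46, -0.25 and -0.17 in untreated mutants. The median of that stellate list in metformin replicate 3 was 0.07 relative to wild type, while the contractile genes of the 37 were at 3.79 there. Bmp5, a bone morphogenetic protein of stellate cells, was at 1.39, 1.48 and 2.70 CPM with the combination and 0.959, 0.273 and 0.917 CPM in untreated mutants, without overlap (1.36 ± 0.55, adjusted p = 0.866).

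Of 34 other matrix genes 31 were higher with metformin (median 1.05, and 0.33 without metformin replicate 3) and 27 with the combination (median 0.76, and -0.11 without combination replicate 3). For these and the next lists the shares over all genes were again 53.9% and 50.4%. Fbln1, fibulin 1, was at 17.1 CPM in metformin replicate 3 and at most 1.04 CPM elsewhere, and Tnc, tenascin C, was at 9.50 CPM in combination replicate 3 and at most 1.95 CPM elsewhere. Of 28 other genes of the transforming growth factor beta pathway 23 were higher with metformin (median 0.63) and 23 with the combination (median 0.56). By library, in order of size, the median of this list relative to wild type was -0.10, 0.01 and 1.10 with the combination. It was -0.35, 0.27 and 0.86 with metformin and -0.52, -0.15 and 0.04 in untreated mutants. Of 21 genes of collagen synthesis and processing 13 were higher with each (medians 0.29 and 0.31), and Ppib, a collagen-folding isomerase, had a metformin difference of -0.67 ± 0.28 (adjusted p = 0.788). Of 18 proteases and inhibitors 15 were higher with metformin (median 0.26) and 12 with the combination (median 0.83). Among these the inhibitor Timp4 was highest in combination replicate 3, but it was low in metformin replicate 3 and high in other libraries too. It was at 49.98, 86.7, 35.5, 26.0 and 70.7 CPM with oxymetholone and 48.7, 6.78 and 104 CPM with the combination, against 0.781, 0.492 and 0.587 CPM in untreated mutants. No library of either treated group overlapped the untreated mutants, with differences of 6.41 ± 1.58 (adjusted p = 0.348) and 6.40 ± 1.61 (adjusted p = 0.509). With metformin Timp4 was at 0.368, 2.11 and 52.7 CPM, and in wild type at 0.599, 5.2, 0.358 and 0.231 CPM.

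**Figure D5:**
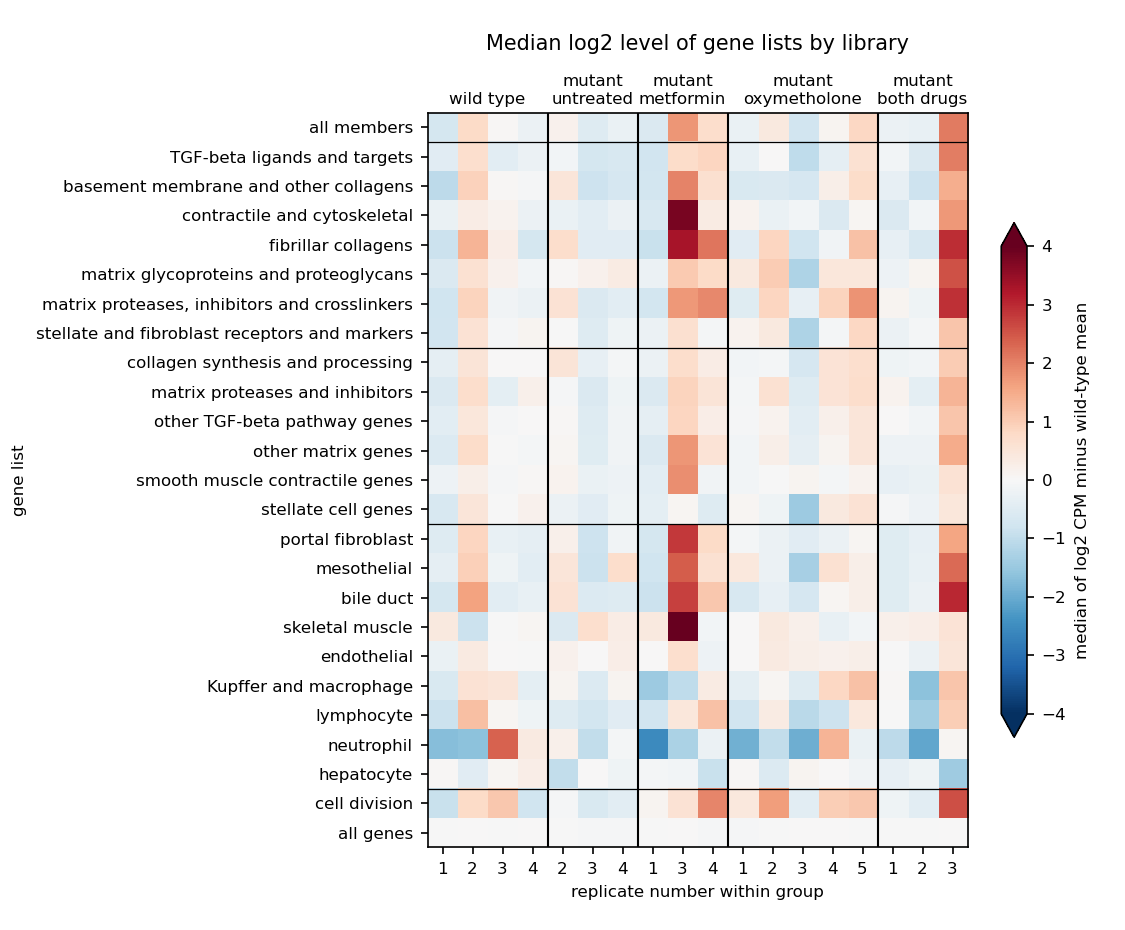
Median over each gene list (rows) of log2 CPM minus the wild-type mean (colour scale, log2 units) in the 18 libraries (columns, grouped by genotype and treatment). From the top, the blocks are the 37 genes with their role groups, the 6 lists of related genes, the markers of cell types, and cell division with all genes. The contractile row is at 3.79 in metformin replicate 3, where the stellate cell row is at 0.07.

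The authors' deposited table gives tests of its own, whose method no source used here names, and called none of the 37 genes in its 7 comparisons. Over all genes the authors' deposited table called 0.292% for oxymetholone against untreated mutants and 0% in each of the other 6. With the combination 11 of 37 genes were higher in the authors' deposited table than in untreated mutants (median log2 fold change -0.33), the opposite direction from the counts above with all libraries. For metformin 16 of 37 were higher in the authors' deposited table (median -0.14), and for oxymetholone also 16 (median -0.09). From the counts with all libraries 33 and 31 of 37 were higher, again the other direction. The smallest adjusted p of the list in the authors' deposited table was 0.227, for Col3a1 with the combination (log2 fold change -1.28). For Acta2 with metformin the authors' deposited table gives a log2 fold change of -2.30, where the counts with all libraries gave 4.31. For genotype the authors' deposited table gives 2.06 for Acta2 and 0.97 for Myl9, where the counts gave 0.56 and -0.32. In the interaction the authors' deposited table gives 3.03 for Acta2. The counts gave -1.70 with all libraries and 2.92 without metformin replicate 3.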

How the data were processed

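Liver RNA was measured by RNA-seq in 5 groups of male mice, per the labels. Reads were placed on GRCm39, as the submitters' processing notes record. For aligner, counter and annotation the entry is: not given in the sources used here. A single deposited table lists 16115 genes, and its raw columns are whole-number counts, per the file headers. In every gene at least 3 libraries reached 0.401 CPM before scaling, so genes with low counts are not in the table. A set of deposited CPM columns is a signal scaled by library, and equals CPM with TMM factors computed here (largest relative difference 4.97e-15). The CPM values reported here are these. Deposited columns of log2 residuals, per the file headers, were not used. The authors also deposited log2 fold changes with p-values for 7 comparisons.

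Counts were fitted with edgeR 4.0.16 in R 4.3.3, with TMM scaling, filterByExpr (0 genes removed), 1 coefficient per group over 18 libraries, a robust quasi-likelihood test and Benjamini-Hochberg adjustment at 0.05 over all genes. The common dispersion was 0.181. Log2 CPM used a prior count of 2. The procedure was tested on simulated data. Alternatives were DESeq2 1.42.0, limma-voom with quality weights (limma 3.58.1), other scaling and filters, fits of the compared groups alone, and leaving out each library. Values in every library were given for the 4 genes with the smallest p in each of 4 comparisons and for Acta2, Col1a1, Col1a2, Col3a1, Timp1, Pdgfrb, Lrat and Tgfb1, and of other lists at most the 3 genes with the smallest p in a comparison were named. The values in each library of Vim, Thy1, Dpt, Col5a2, Col4a1 and Lum were added after they were seen. The members and lists were chosen with earlier results of these data known. Promoters are from RefSeq on GRCm38.p6, used for sequence only. Not analysed here were replicate 1 of the untreated mutants and replicate 2 of metformin. Replicates were numbered in the order of the sample records.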

Additional observations from a re-analysis of the deposited data

Results flagged for a closer look

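In wild type and with oxymetholone, the groups of 4 and 5 libraries, each of the 37 genes and the median of the list was checked for a library far from the others by Dixon's criterion. Of these 76 sets of values 8 had one, all at the high end. By chance about 1 in 20 sets of normally spread values would. The genes were checked on CPM without logs, which favours flags at the high end. All sets of a group share the same libraries and are not independent, so the number flagged cannot be set against that rate. Wild-type replicate 2 was far above its group in Dpt (5.02 CPM, next 1.11), Timp2 (19.55 CPM, next 9.92), Loxl1 (1.851 CPM, next 0.424) and Tgfb2 (2.172 CPM, next 0.463). Oxymetholone replicate 5 was far above its group in Col5a1 (3.034 CPM, next 1.63), Des (8.18 CPM, next 4.45) and Tgfb2 (3.088 CPM, next 0.667). Oxymetholone replicate 1 was far above its group in Synpo2 (1.081 CPM, next 0.571). Groups of 3 libraries, among them those that hold metformin replicate 3 and combination replicate 3, were not checked.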

How the results depend on the processing

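Of the values recomputed under other settings, 534 for single genes stayed on the same side of the threshold and in the same direction. For whole comparisons 328 were rated unchanged. There, counts of genes called stayed equal or within a set ratio, and medians moved by less than the spread between libraries of a group. That rating did not ask for the same sign, and some of these medians changed sign, such as that for genotype without wild-type replicate 2 (0.15). Genes called among all 16115 were 11 for metformin by DESeq2 (0 by edgeR), with 1 of the 37 among them, Synpo2 (3.27). For oxymetholone they were 77 by DESeq2, 14 by limma-voom and 15 without both libraries that stood apart (7 by edgeR with all). For the combination they were 43, 16 and 5, and 0 when only the compared groups were fitted (3). Against wild type they were 49 by DESeq2 for metformin (0), 89, 43 and, with only the compared groups, 25 for oxymetholone (16), and 75, 35 and 1 for the combination (4). DESeq2 called 3 in the interaction (0). Without both libraries the median of the 37 was -0.22 for the combination, 0.28 for metformin against wild type and -0.49 for the combination against wild type.

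With each library left out in turn, calls among all genes ran from 4 to 7 for oxymetholone, 0 to 3 for the combination, 0 to 67 for metformin against wild type (0 to 2 of the 37), 9 to 17 for oxymetholone against wild type and 3 to 6 for the combination against wild type. Medians of the 37 ran from -0.62 to 0.15 for genotype, 0.44 to 1.78 for metformin, 0.11 to 0.59 for oxymetholone, -0.21 to 1.44 for the combination, 0.25 to 1.64 for metformin against wild type, -0.03 to 0.37 for oxymetholone against wild type, -0.50 to 1.14 for the combination against wild type and -1.94 to 0.20 for the interaction.

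Single genes reversed as follows. By limma-voom the genotype difference was 0.0914 for Col3a1 and -0.24 for Timp1, Timp1 was at 1.76 with metformin and 1.40 with oxymetholone, and with the combination Col1a1 was at -0.57, Col3a1 at -0.49, Acta2 at -0.81 and Timp1 at 0.73. Without both libraries metformin gave -0.31 for Acta2, -0.66 for Myl9 and -0.19 for Pdgfrb, and the combination -1.77 for Col1a1, -0.32 for Col1a2, -1.12 for Col3a1, -1.11 for Acta2, -0.67 for Pdgfrb, -0.13 for Lox and -0.22 for Ccn2. Leaving out single libraries gave, for genotype, -1.36 to 0.30 in Col1a1, -1.04 to 0.32 in Col1a2, -0.40 to 0.71 in Col3a1 and -1.08 to 3.32 in Timp1. For metformin it gave -0.32 to 4.87 in Acta2, -0.66 to 4.33 in Myl9, -0.21 to 1.09 in Pdgfrb and -2.92 to 2.27 in Timp1, and for oxymetholone -0.018 to 1.67 in Col1a1, -0.20 to 0.58 in Col3a1, -0.13 to 1.09 in Pdgfrb and -1.79 to 2.61 in Timp1. For the combination it gave -1.10 to 2.82 in Acta2, -0.20 to 3.12 in Ccn2, -1.76 to 1.63 in Col1a1, -0.31 to 2.39 in Col1a2, -1.10 to 2.28 in Col3a1, -0.12 to 3.38 in Lox, -0.67 to 1.28 in Pdgfrb and -2.85 to 3.29 in Timp1. Beyond the libraries left out, the cause was not tested. No paired analysis was possible because the labels carry no replicate numbers. Genes with under 10 counts in a library carry more counting error.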

Other observations

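The 17 measured genes of a cell division list were described in the same way as the 37. With oxymetholone 17 of 17 lay higher than in untreated mutants (52.9% of all genes), with a median log2 difference of 1.45. By library the median of the list relative to wild type ran from -0.43 to 1.68 with oxymetholone. With metformin it was also 17 of 17 (53.9% of all genes), with a median of 1.60 (and 1.85 without metformin replicate 3). The list was highest in metformin replicate 4 (summed level 45.5 CPM), and no value without that library is given here. By library, in order of size, its median was 0.11, 0.57 and 1.95 with metformin and -0.60, -0.42 and -0.05 in untreated mutants. With the combination 17 of 17 lay higher (50.4% of all genes), with a median of 2.02. Without combination replicate 3 it was 8 of 17, with a median of -0.28, where 11 of the 37 genes were higher. In untreated mutants 1 of 17 lay higher than in wild type (47.8% of all genes), with a median of -0.58. None of these genes had an adjusted p under 0.05 by edgeR's quasi-likelihood test.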
